A study of Mus musculus with 60 samples.

Results

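Cytosolic ribosomal protein genes were examined in the lungs of mice that had inhaled superparamagnetic iron oxide (SPIO) nanoparticles. The members were all genes whose symbol is Rpl or Rps with a number (and, where present, a final letter or paralog suffix), together with Rpsa, Rplp0, Rplp1 and Rplp2. Where a gene had several probe sets, the brightest on average was used. This rule found 49 of the 18193 genes measured by a probe set with a single gene symbol. They comprised 21 small subunit proteins, 20 large subunit proteins, 2 stalk proteins and 6 paralogs. Rplp1, Rpl5 and Rpl3 had no probe set with their symbol alone, and 110 further probe sets that listed a ribosomal protein symbol beside other symbols were not used.

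Male Balb/c mice breathed either the SPIO nanoparticle aerosol or a sham atmosphere of humidified helium and oxygen in filtered air, nose-only, for 4 h. Lungs were taken at 0, 6, 24, 48, 96 and 168 h after the end of exposure, with 5 mice for each treatment and time, giving 12 groups and 60 Affymetrix arrays, 1 per mouse. All groups, sham controls included, carried the restraint and the helium-oxygen mixture; the animals' age was not given in the sources used here. Mice of the 96 h groups also underwent plethysmography, and those of the 168 h groups were held in metabolism cages on a liquid diet, so handling and time cannot be told apart at those times. Values are on the log2 scale, so a difference of 1 is a doubling of signal.

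Ribosomal proteins build the small and large ribosomal subunits, which join to translate mRNA into protein. Their mRNAs are among the most abundant in any cell, and because the proteins are needed in equal amounts they are usually made together. Most of these mRNAs begin with a cytosine and a run of pyrimidines, the 5′ terminal oligopyrimidine (TOP) tract, through which the kinase mTORC1 controls their translation. That control acts on translation more than on mRNA level, and an array measures only mRNA level. A few genes are paralogs of a canonical ribosomal protein gene, and some of these are expressed in particular tissues or conditions: Rpl3l replaces Rpl3 in muscle, and Rps27l is known as a p53 target.

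The arrays carried the lung's own transcripts. The mean of the alveolar type 2 cell markers, which include the surfactant genes, lay between 13.2 and 13.6 on every array. The 3′ to 5′ signal, a sign of RNA quality, differed between treatments: the 3′ minus 5′ difference of the Actb control probe sets averaged 0.60 to 0.68 over the 6 sham groups and 0.74 to 0.91 over the 6 exposed groups. Array spread also differed, with a mean interquartile range of 3.85 in the 24 h sham group and 3.91 in the 48 h sham group against 3.98 to 4.13 in the other 10. Array 1 of the sham 0 h group stood apart, with a value of 14.02 for the liver transcript Alb and 11.94 for Xist, which was at most 6.02 on the other arrays. Array 3 of the exposed 24 h group had the lowest mean of 3 Y-linked genes, 5.595 against a median of 7.596.

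The annotated start sites of the members are shown because the TOP tract defines how these mRNAs are regulated as a class. A promoter sequence was listed in RefSeq (GRCm38.p6) for 43 of the 49 genes. A cytosine followed by at least 4 further C or T without a break, on the gene's strand and within 10 bases on either side of an annotated start, was found for 24 of the 43 (55.8%), against 28.8% of all 27025 genes with a listed promoter. Such a run covered the start base itself in 13 of the 51 listed member promoters (25.5%), against 8.003% of all 32851. A missing run says only that these letters were not in the window. The windows of the 8 members that passed a test between exposed and sham mice, with Rps6 beside them, run from 10 bases before the start, with the pyrimidine run in capitals.
Rpsa, chromosome 9:120127756-120127775, plus strand: ttatttaaggacgtcatttc
Rps3, chromosome 7:99483700-99483719, minus strand: aagggtcgccgcgctgcgcg
Rps2, chromosome 17:24720053-24720072, plus strand: gtcgagatctcgcgCTTCTT
Rpl14, chromosome 9:120571507-120571526, plus strand: ggCCCTCTCTCTTCTCgctg
Rpl22l1, chromosome 3:28805498-28805517, plus strand: gcgcaagcccgttCTCTTCC
Rpl37, chromosome 15:5116603-5116622, plus strand: cctgggcggaagcttatcca
Rps27l, chromosome 9:66946076-66946095, plus strand: CCTCCCCgccgCCTCTatcc
Rpl27a, chromosome 7:109519185-109519204, plus strand: cgtgagCTCCTCCCTTTTCC
Rps6, chromosome 4:86857358-86857377, minus strand: gaagtcgggCCTCTTTTTCg
Rpl14 and Rps6 held the run across a start that is itself a C, whereas Rpsa, Rps3 and Rpl37 held none. Rps27l had a second listed start, which held no run. Rps6 passed no such test and is shown as an example of a run. Of the other windows read beside it, that of Rpl39l held a run. Those of Rplp0, Rps19, Rpl41, Rpl37a, Rpl7l1 and Rpl3l held none.

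The signals of most ribosomal protein genes varied little over the 60 arrays. The 34 members with a mean log2 value of at least 12 averaged between 13.17 and 13.37 on single arrays, a range of 0.19 from the lowest mouse to the highest. Their median residual SD between mice of a group was 0.058, against 0.108 for the other 322 genes with a mean of at least 12. Those other genes averaged lower, between 12.61 and 12.72 on single arrays, so the sets were not matched in level. Whether the high signal itself narrowed the spread was not tested. Over all 49 members the median residual SD was 0.069, against 0.176 over all genes, and the median range of a gene over 60 arrays was 0.35 against 0.92. The steadiest was Rps4x, an X-linked small subunit protein, with a range of 0.16. Of these 34 probe sets, 13 had names that end in x_at or s_at, which the manufacturer gives to probe sets that may also bind other transcripts. Ribosomal protein genes have many processed pseudogenes, so those values are uncertain in what they count. The 15 members with a mean under 12 had a median range of 0.68. They include canonical genes: Rpl27a had a mean of 8.81, Rps6 of 8.16, Rpl37 of 8.06, Rps27 of 6.80 and Rpl39 of 6.74. Whether such dim probe sets read the main mRNA of their gene was not tested.

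**Figure D1:**
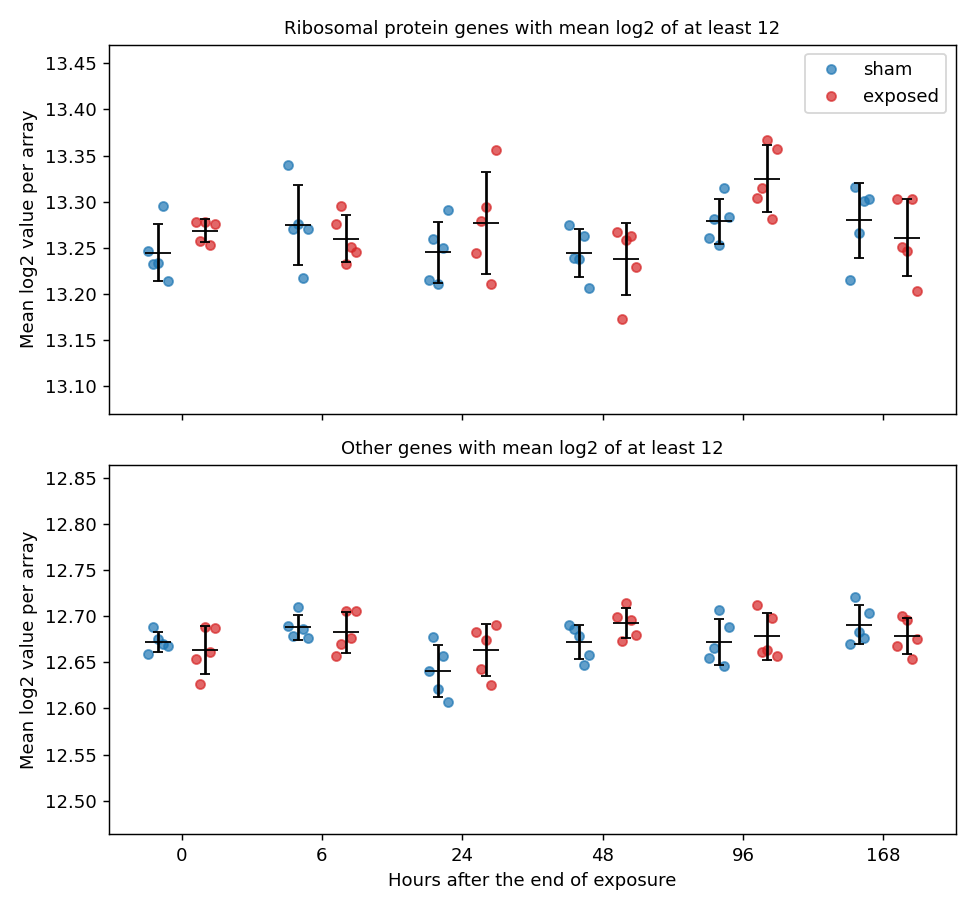
The mean log2 value per array of the 34 ribosomal protein genes with a mean of at least 12 (upper panel) and of the other 322 genes with such a mean (lower panel) by hours after exposure, in sham (blue) and exposed (red) mice. Points are mice, bars are the mean and SD of 5 mice, and both panels span the same height of 0.4; the exposed 96 h group had the highest mean in the upper panel, 13.32, and the exposed 48 h group the lowest, 13.24.

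On the deposited scale few of these genes differed after SPIO nanoparticle exposure, whereas on median-centred arrays 20 of 49 passed at 24 h and 15 at 48 h. At 24 h on the deposited scale, 6 of 49 members passed an adjusted p of 0.05 in limma, 4 higher and 2 lower, at a time when 23.9% of all genes passed (20.3% higher and 3.66% lower). At that time 28.7% of all genes set the sham group apart from the other sham groups. The exposed group was set apart from the other exposed groups by 0.126% of them. At 48 h 1 member was lower, where 12.5% of all genes passed, and at 168 h 1 was higher, where 2.19% passed. No member passed at 0 h (3.67% of all genes), 6 h (1.17%) or 96 h (1.41%) in limma. At an unadjusted p under 0.05 there were 3, 2 and 4 members, for which no share of all genes is given here. By the methods' test, an analysis of variance for unequal variances followed by Tukey's comparison, the counts of members from 0 to 168 h were 0, 1, 2, 0, 1 and 0, against 2.79%, 1.55%, 11.6%, 6.91%, 1.72% and 2.07% of all genes. The median member difference was 0.023, -0.019, 0.027, -0.005, 0.050 and -0.029 from 0 to 168 h, against 0.035, 0.035, 0.090, 0.043, 0.065 and 0.015 over all genes.

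The small spread allowed narrow bounds. The 95% confidence interval of the exposed minus sham difference lay wholly within 0.2 of 0 for 36, 35, 29, 36, 35 and 37 of the 49 members from 0 to 168 h, and for 4.50% to 9.61% of all genes. Rplp0 and Rplp2, acidic stalk proteins that recruit elongation factors, differed by -0.09 to 0.07 and by -0.06 to 0.06 over the 6 times. Rps19, a small subunit protein mutated in Diamond-Blackfan anaemia, differed by 0.02 to 0.06, and its interval at 24 h ran from -0.06 to 0.12. Rpl11, which can bind and inhibit Mdm2, differed by -0.10 at 24 h with an interval from -0.19 to 0.0012. Rpl13a, a component of a complex that silences inflammatory mRNAs, differed by -0.05 at 24 h and by 0.08 at 96 h. Rpl41, the smallest of the ribosomal proteins, differed by -0.06 to 0.10. None of these 6 genes passed at any time on the deposited scale by the probe set used. Other probe sets read differently, by up to 0.93 for Rpl41 and 0.14 for Rpl13a. Over all 105 probe sets of the members, 10 passed in limma at 24 h, 2 at 48 h and 1 at 168 h. Of these, 5 at 24 h and 2 at 48 h were not the probe sets used. Their p-values were adjusted across all probe sets, and no share over those is given here.

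**Figure D2:**
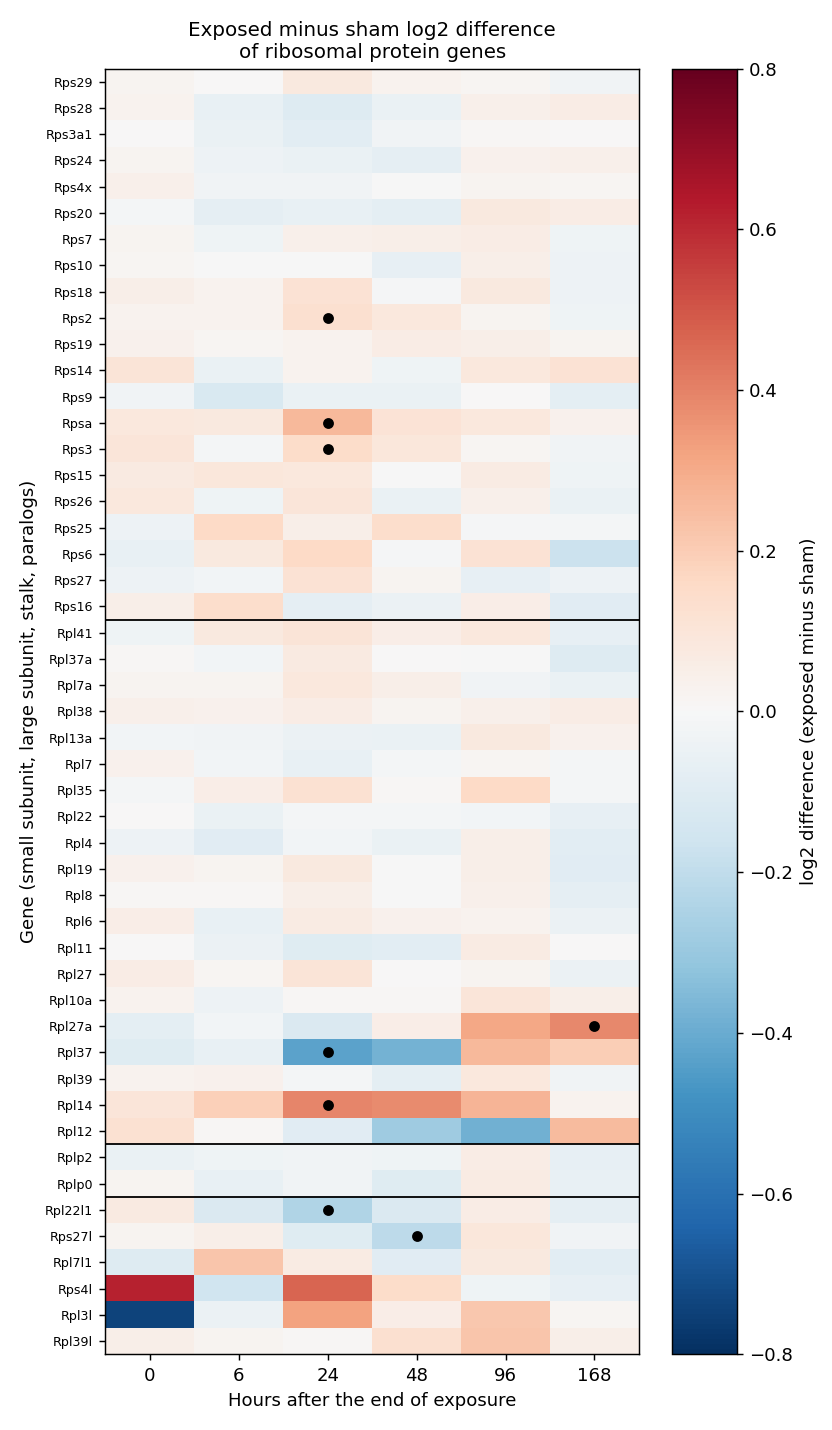
The exposed minus sham log2 difference of each of the 49 ribosomal protein genes (rows, by class and falling mean level) at each of the 6 times (columns), from blue (lower in exposed mice) to red (higher), with a dot where the adjusted p was under 0.05. There are 8 dots, 6 of them at 24 h, and the strongest colours without a dot are those of the paralogs Rps4l and Rpl3l at 0 h.

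Rpsa had the smallest p of any member. It encodes the small subunit protein also known as the laminin receptor. The 5 sham mice at 24 h gave 12.93, 12.92, 12.92, 13.01 and 12.97, and the 5 exposed mice 13.17, 13.30, 13.19, 13.18 and 13.19. Every exposed mouse was above every sham mouse. The difference was 0.26 ± 0.050 (SE, limma adjusted p = 0.00023), a 1.19-fold higher signal. It passed whichever of the 10 mice was left out. It was 0.08 on median-centred arrays (adjusted p = 0.30) and 0.12 as a mean with a second probe set that averaged 3.00 (adjusted p = 0.12). At the other times Rpsa differed by 0.04 to 0.11 and passed at none.

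Rps3 and Rps2, proteins near the entry of the small subunit's mRNA channel, were also higher at 24 h on the deposited scale, although both directions turned on median-centred arrays (-0.03 and -0.05). Rps3 read 12.94, 12.93, 12.81, 12.88 and 12.89 in sham mice and 13.01, 13.15, 13.05, 13.04 and 12.95 in exposed mice, again without overlap. The difference was 0.15 ± 0.045 (limma adjusted p = 0.013). It was lost without sham array 3 or exposed array 2 of that time (adjusted p = 0.053 and 0.064). Rps2 read 13.15, 13.25, 13.01, 13.14 and 13.21 in sham mice and 13.30, 13.26, 13.31, 13.30 and 13.23 in exposed mice, where the groups overlapped. The difference was 0.13 ± 0.045 (limma adjusted p = 0.035) and passed in 3 of the 10 fits that left out 1 mouse. Rpsa and Rps3 were the 2 members whose groups did not overlap at 24 h, against 11.4% of all genes.

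Rpl14, a large subunit protein read here by a dim probe set, was higher in exposed mice at 24 h. Sham mice gave 5.99, 6.56, 6.29, 6.25 and 6.32, and exposed mice 6.55, 6.53, 6.78, 6.56 and 6.95, so 1 sham mouse lay within the exposed range. The difference was 0.39 ± 0.14 (SE, limma adjusted p = 0.030), or 1.31-fold, and at 48 h it was 0.38 (adjusted p = 0.055). On median-centred arrays the 24 h difference was 0.21 and did not pass (adjusted p = 0.23). It passed on the deposited scale in 5 of the 10 fits that left out 1 mouse.

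Rpl37 and Rpl22l1 were lower in exposed than in sham mice at 24 h. The Rpl37 probe set was dim, with a mean of 8.06. Rpl37, a zinc-binding large subunit protein, gave 8.28, 8.50, 8.39, 8.27 and 8.73 in sham mice and 7.99, 7.69, 7.96, 7.83 and 8.56 in exposed mice, of which only the mouse at 8.56 reached the sham range. The difference was -0.43 ± 0.15 (limma adjusted p = 0.032) and passed in 3 of the 10 fits that left out 1 mouse. Rpl22l1, the paralog of Rpl22, gave 11.84, 12.02, 11.95, 11.89 and 12.03 in sham mice and 11.65, 11.58, 11.68, 11.56 and 12.03 in exposed mice. Its difference was -0.24 ± 0.080 (limma adjusted p = 0.021), it passed in 7 of those 10 fits, and the same exposed mouse, array 5, was high for both genes. Rpl22 itself differed by -0.02 at 24 h, with an interval from -0.10 to 0.06. On median-centred arrays both were lower, Rpl22 by 0.20 (limma adjusted p = 0.0020) and Rpl22l1 by 0.42 (adjusted p = 0.0016).

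At 48 h Rps27l was the member that passed. Sham mice gave 11.78, 11.73, 11.79, 11.54 and 11.82, and exposed mice 11.65, 11.41, 11.54, 11.54 and 11.49. The ranges overlapped through 1 sham mouse at 11.54. The difference was -0.21 ± 0.068 (limma adjusted p = 0.032) and passed in 4 of the 10 fits that left out 1 mouse. Its parent Rps27 was read by a dim probe set, with a mean of 6.80. Rps27 differed by 0.02, with an interval from -0.10 to 0.15, and by -0.11 on median-centred arrays (limma adjusted p = 0.28), where Rps27l was at -0.34 (adjusted p = 0.0052). Rps24 was the 1 member without overlap at 48 h, against 7.68% of all genes.

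At 168 h Rpl27a, a large subunit protein read by a dim probe set (mean 8.81), was higher in exposed mice. Sham mice gave 8.75, 8.67, 8.57, 8.45 and 8.69, and exposed mice 9.16, 8.90, 8.99, 8.85 and 9.16, without overlap. The difference was 0.39 ± 0.11 (limma adjusted p = 0.041), or 1.31-fold. It passed in 3 of the 10 fits that left out 1 mouse, and it was 0.25 (adjusted p = 0.34) with the Actb 3′ minus 5′ difference as a covariate. On median-centred arrays no member passed at 168 h, Rpl27a included, where 2.45% of all genes passed. Rpl27a was the only member without overlap at that time, against 3.86% of all genes. At 0, 6 and 96 h the members without overlap numbered 2 (Rps3 and Rps4x), 3 (Rpl22, Rps3a1 and Rpl7l1) and 2 (Rpl10a and Rpl35), beside 4.25%, 3.36% and 4.11% of all genes.

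**Figure D3:**
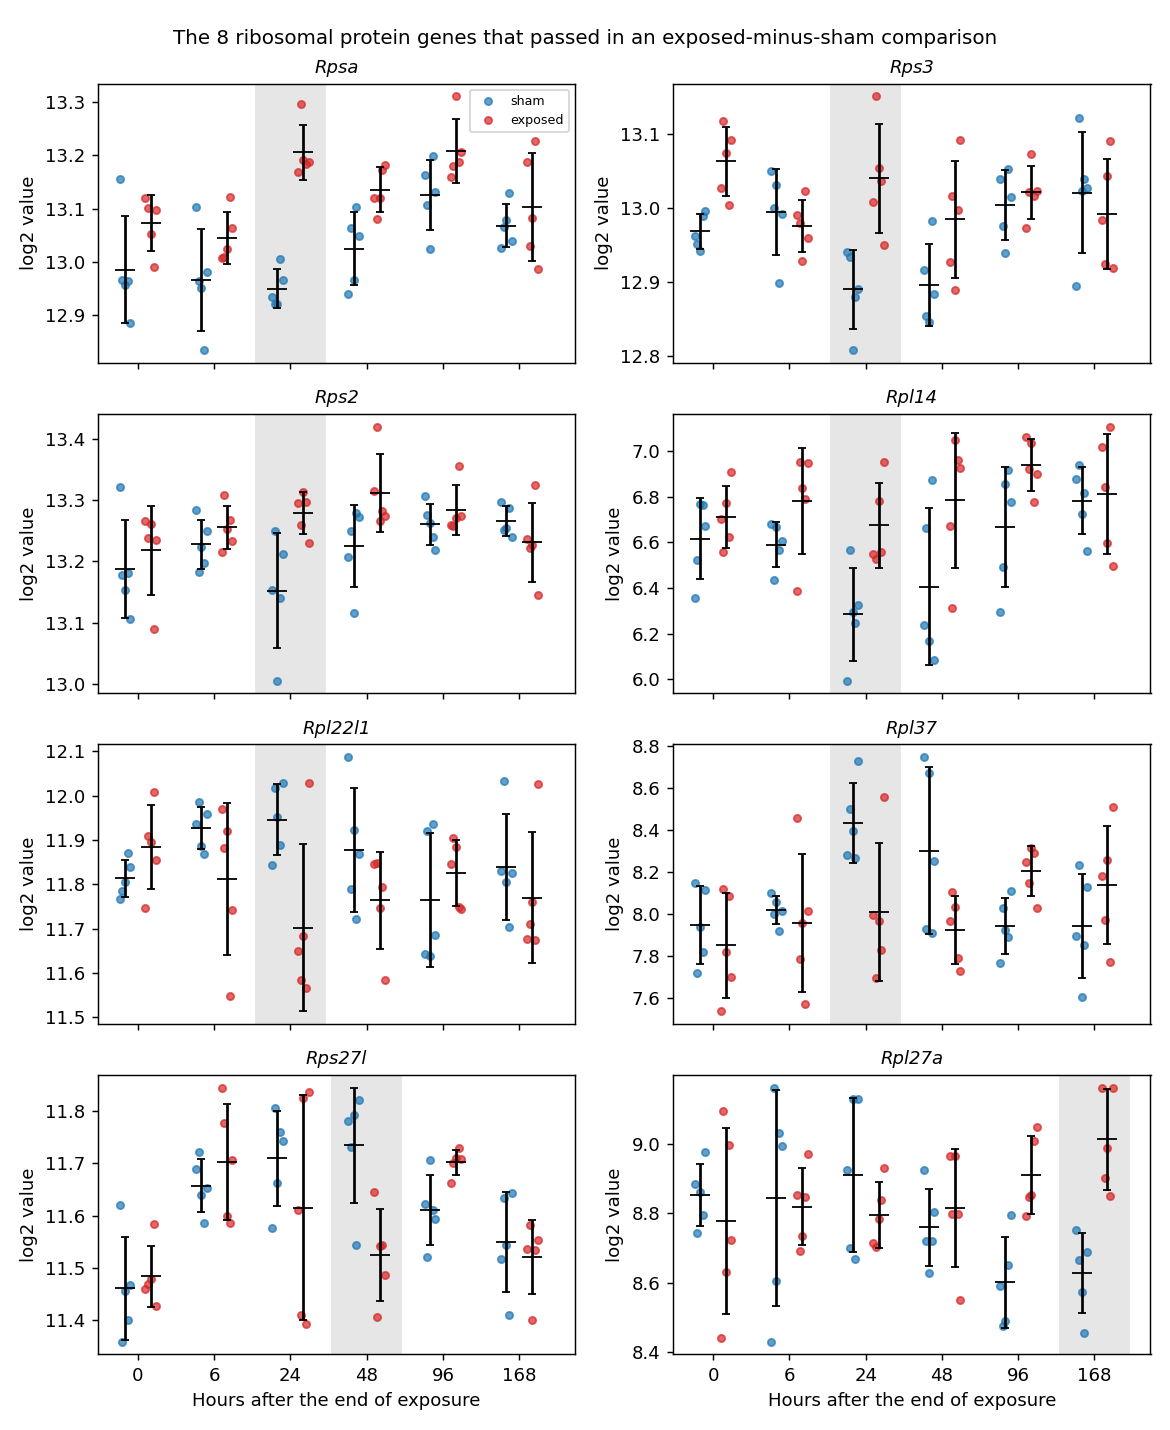
Log2 values of the 8 ribosomal protein genes that passed in a comparison of exposed (red) with sham (blue) mice, by hours after exposure; points are mice, bars are the mean and SD of 5 mice, and grey marks the time at which the gene passed. Rpsa, Rps3 and Rpl27a show no overlap of the groups at the grey time, and for Rps3 and Rps2 the direction at 24 h turned on median-centred arrays.

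The scale on which the arrays were compared changed the count. The median over all probe sets was level between treatments at 24 h (5.58 in both), but the median over the 18193 genes was 6.94 in sham and 7.13 in exposed mice, a shift of 0.18, and at 48 h the shift was 0.13. When each array was centred on its gene median, 20 of 49 members passed at 24 h and 15 at 48 h, and every one of them was lower in exposed mice. Centring lowered every exposed minus sham difference by that same shift, which put members with a deposited difference near 0 below 0. On that scale 16.3% of all genes passed at 24 h and 8.82% at 48 h, and 28.0% of the calls at 24 h were higher in exposed mice, against 84.7% on the deposited scale. Among the other genes with a mean of at least 12, 34.2% and 16.5% passed after centring, and 106 of those 110 genes at 24 h and 48 of those 53 at 48 h were lower too. Rps3a1 was then lower by 0.27 (limma adjusted p = 0.00022), Rpl11 by 0.28 (adjusted p = 0.0013) and Rpl13a by 0.23 (adjusted p = 0.0027). The median member difference at 24 h was -0.15 on the centred scale and 0.027 on the deposited one. Which scale reflects RNA per cell was not tested, and in bulk tissue fewer cells of a type and less RNA per cell cannot be told apart. Markers of immune cells differed at 24 h on the deposited scale, where 20.3% of all genes were higher. Of them 3 of 4 B cell, 2 of 5 T cell, 3 of 3 monocyte and 1 of 4 macrophage markers were higher in exposed mice, and 0 of 3 neutrophil markers passed. Over the 6 sham groups 4, 4, 3, 2 and 3 of these markers, in that order, differed in limma's F test. Over the 6 exposed groups the counts were 1, 0, 2, 0 and 3. The mean of the B cell markers per array ran from 5.83 to 7.12 in sham and from 6.72 to 8.13 in exposed mice, and that of the monocyte markers from 7.19 to 9.51 and from 8.79 to 10.3. Their part in the 24 h values was not tested.

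**Figure D4:**
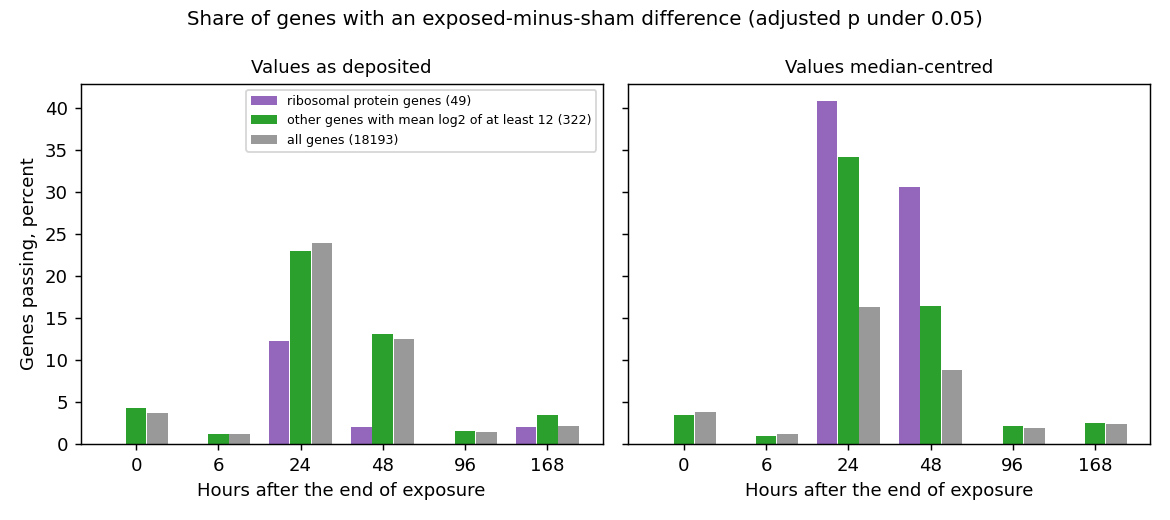
The percent of genes with an exposed minus sham difference at an adjusted p under 0.05 at each of the 6 times, for the 49 ribosomal protein genes, the other 322 genes with a mean log2 of at least 12, and all 18193 genes, on the deposited values (left) and after centring each array on its gene median (right). At 24 h the ribosomal protein genes had the smallest share on the left, 12.2%, and the largest on the right, 40.8%.

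At 96 h the members leaned upward together without any of them passing. The difference was positive for 42 of 49 members, with a median of 0.050, while 12552 of 18193 genes in all were positive with a median of 0.065. The 5 exposed mice had the highest mean of any group over the 34 bright members, 13.32 ± 0.036 (SD, n = 5), and their sham controls 13.28 ± 0.024. Those exposed arrays also had the highest Actb 3′ minus 5′ difference of any group, 0.91 against 0.61. On median-centred arrays the median member difference was -0.0097. With the Actb difference as a covariate the median member difference was 0.0055, and without exposed array 3, the array with the highest 3′ to 5′ difference, it was 0.036. Among lymphocyte markers, none of the 4 B cell or 5 T cell markers passed at 96 h by limma (3 and 1 at an unadjusted p under 0.05). The B cell marker mean per array ran from 6.36 to 7.86 in sham and from 7.69 to 8.20 in exposed mice, and the T cell marker mean from 7.23 to 7.82 and from 7.80 to 7.88. Both pairs of ranges overlapped. The part of RNA quality and of these cells in the 96 h values was not tested further.

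The sham groups were then compared with one another. Over the 6 sham groups 7 of 49 members differed in limma's F test, against 41% of all genes. These were Rps27l (adjusted p = 0.0064), Rpl37 (0.012), Rpl14 (0.022), Rpsa (0.022), Rpl27 (0.034), Rps3 (0.043) and Rps25 (0.049). Over the 6 exposed groups the same test was passed by 1 member, Rps27l, at 7.13% of all genes. Without the 24 h sham group, Rps27l and Rps25 were the 2 members left, at 24.8% of all genes.

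The 24 h sham group accounted for 4 of the 5 members that set 1 sham group apart from the mean of the other sham groups. Against those, 28.7% of all genes passed at 24 h. Rpl37 was higher there by 0.40 ± 0.12 (limma adjusted p = 0.0080), and Rpl14 was lower by 0.33 ± 0.10 (adjusted p = 0.016), Rpl27 by 0.11 ± 0.034 (adjusted p = 0.015) and Rps27 by 0.12 ± 0.047 (adjusted p = 0.050). No member set the exposed 24 h group apart from the other exposed groups. The same sham mice enter the exposed minus sham differences of Rpl37 and Rpl14 at 24 h, so the 2 comparisons are not independent. The part of the sham group in those differences was not tested. On median-centred arrays 27 members passed, each of them higher in the 24 h sham group, where 28.2% of all genes passed. The direction was largely shared, since 97 of the 109 other genes with a mean of at least 12 that passed, and 76.5% of all genes that passed, were higher there too. On that scale Rpl14 was at -0.19 and no longer passed (adjusted p = 0.11), and Rpl27 and Rps27 turned to 0.026 and 0.013. With the interquartile range of each array as a covariate in limma, the counts at 24 h and in the F test were both 0, while 5.36% and 20.2% of all genes passed. Without sham array 2 of 24 h the count was 8, and without array 3 or array 5 it was 2.

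Rps27l was the member that set another sham group apart. Its sham mean was lowest at 0 h (11.46 ± 0.10, SD, n = 5) and highest at 48 h (11.73 ± 0.11). In between lay 11.66 ± 0.05 after 6 h, 11.71 ± 0.09 after 24 h, 11.61 ± 0.07 after 96 h and 11.55 ± 0.10 after 168 h. The sham 0 h group was lower than the other sham groups by 0.19 ± 0.052 (limma adjusted p = 0.012, at 10% of all genes). That call was lost without sham array 2 or 4 of 0 h. Exposed mice read 11.48 at 0 h and 11.70 at 6 h, close to the sham means of the same times. No member set the sham groups of 6 h (7.67% of all genes), 48 h (5.36%), 96 h (1.07%) or 168 h (5.28%) apart in limma. At an unadjusted p under 0.05 there were 2, 8, 7 and 3, without a share of all genes at that p.

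Among the 15 pairs of sham groups, the 24 h group was a partner in the pairs with the most members. Between 168 and 24 h, 9 members passed, 7 of them higher at 168 h, against 32.3% of all genes. Rpl14 was higher there by 0.50 ± 0.14 (limma adjusted p = 0.0042), Rps6, the S6 kinase substrate, by 0.26 ± 0.084 (adjusted p = 0.013), and Rpl37 was lower by 0.49 ± 0.15 (adjusted p = 0.010). Between 96 and 24 h 8 members passed, against 26.7% of all genes, and Rpsa was higher at 96 h by 0.18 ± 0.050 (adjusted p = 0.0085). Between 24 and 0 h 3 members passed, against 21.6% of all genes. Each of the other 12 pairs held at most 1 member, against 0.143% to 19.3% of all genes.

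Exposed groups set against the mean of the other exposed groups differed in 1 member. At 6 h Rpl7l1, a nucleolar relative of Rpl7, was higher by 0.17 ± 0.052 (limma adjusted p = 0.043, at 4.39% of all genes). The call was lost in 11 of the 30 fits that left out 1 mouse. The groups of 6 h did not overlap between exposed and sham mice. Rpl7 itself differed between exposed and sham mice by -0.02 at 6 h. No member passed in the exposed groups of 0 h (3% of all genes), 24 h (0.126%), 48 h (0.0934%), 96 h (0.566%) or 168 h (0.176%) by limma. At an unadjusted p under 0.05 there were 3, 1, 4, 14 and 1, again without a share of all genes at that p.

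The effect of exposure was also compared between times. No member passed limma's F test of a difference among the 6 effects, against 8.77% of all genes. At an unadjusted p under 0.05 there were 5 of 49 members, against 4953 of 18193 genes in all. Of the 15 pairs of effects, the pair of 168 and 24 h held 5 members, against 14.4% of all genes. Rpl27a (0.50 ± 0.15) and Rpl37 (0.62 ± 0.21) had the more positive effect at 168 h, and Rpsa (-0.22 ± 0.071), Rps6 (-0.34 ± 0.12) and Rpl37a (-0.18 ± 0.062) the more positive effect at 24 h. The other 14 pairs held no member by limma, and 0% to 4.06% of all genes.

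Of the 6 paralogs, Rpl3l and Rps4l varied most between arrays, with residual SDs of 0.486 and 0.400, while those of Rpl7l1, Rps27l and Rpl22l1 were at most 0.123. Rpl3l, the striated muscle form of Rpl3, had a range of 2.64, the widest of any member. At 0 h its sham mice gave 6.16, 4.63, 3.95, 3.83 and 4.37 and its exposed mice 3.52, 3.94, 4.03, 4.18 and 3.56. The difference of -0.74 ± 0.30 did not pass (limma adjusted p = 0.15) and was -0.35 (adjusted p = 0.53) without sham array 1. That array had the highest mean of the 6 skeletal muscle markers, 8.01 against a median of 5.20, with Acta1 at 11.4 and Ckm at 10.3, while the fast myosin Myh4 was at 3.46. It ranked 29 of 60 for cardiac muscle markers. The next highest array for Rpl3l, exposed 168 h array 2 at 5.26, ranked 3 of 60 for both skeletal and cardiac muscle markers, whereas sham 6 h array 5, which ranked 1 for cardiac and 2 for skeletal muscle, had Rpl3l at 4.52. The part of muscle tissue in the Rpl3l values was not tested. Rps4l, a paralog of Rps4x, had a range of 1.98. Its sham mice at 0 h gave 9.10, 8.57, 8.85, 8.30 and 7.93 and its exposed mice 8.79, 8.49, 9.61, 9.91 and 9.02, a difference of 0.62 ± 0.24 (limma adjusted p = 0.15). Rps4x differed by 0.04 there. Rpl39l differed by 0.01 to 0.22 over the 6 times around a mean of 4.07, and its parent Rpl39 by -0.08 to 0.08 around a mean of 6.74.

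The other genes of protein synthesis were read from 4 lists. At 24 h 23.9% of all genes passed on the deposited scale (20.3% higher and 3.66% lower), and 16.3% passed after centring. Of 17 translation factors and related TOP mRNAs, 6 passed at 24 h, 5 higher and 1 lower in exposed mice, but none of those that passed on median-centred arrays was higher (5 lower). Eif4b, a helicase cofactor of initiation, was higher by 0.30 ± 0.069 (limma adjusted p = 0.0011), Eif3k, an eIF3 subunit, by 0.22 ± 0.067 (adjusted p = 0.015) and Eef1d, an elongation factor subunit, by 0.19 ± 0.064 (adjusted p = 0.026). After centring their differences were 0.12, 0.036 and 0.0081, and none passed. After quantile normalization again 2 of the list were higher and 1 lower, Eif4b and Eif3k among those that passed (0.25 and 0.16, adjusted p = 0.0044 and 0.044). Of 31 ribosome biogenesis genes, 8 were higher and 2 lower, and after centring 2 higher and 9 lower (3 and 8 after quantile normalization again). Wdr12, which processes large subunit rRNA, was higher by 0.49 ± 0.093 (adjusted p = 0.00019), Rrp1b by 0.48 ± 0.099 (adjusted p = 0.00037) and Polr1a, the largest RNA polymerase I subunit, by 0.38 ± 0.083 (adjusted p = 0.00065). Wdr12 and Rrp1b also passed after centring (0.30 for each), and Polr1a did not (0.20, adjusted p = 0.057), although it did after quantile normalization again (0.21, adjusted p = 0.046).

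Of 15 mTORC1 pathway genes, 1 was higher and 1 lower at 24 h, where 23.9% of all genes passed. Mtor, the kinase itself, was higher by 0.28 ± 0.076 (limma adjusted p = 0.0057) and differed by 0.098 after centring (adjusted p = 0.29). On the deposited scale Mtor also passed at 48 h, higher by 0.32 (limma adjusted p = 0.0037), where 12.5% of all genes passed. Sesn2, a stress-induced mTORC1 inhibitor, was lower by 0.69 ± 0.22 (adjusted p = 0.018) and by 0.88 after centring (adjusted p = 0.0062). On the deposited scale Sesn2 was lower at the other times as well, by 0.28 to 0.81. It also passed at 96 h (limma adjusted p = 0.048), where 1.41% of all genes passed. Tsc1, of the same list, was lower at 168 h by 0.34 (limma adjusted p = 0.042), where 2.19% of all genes passed. Rptor, the mTORC1 scaffold, differed by 0.17 ± 0.068 (adjusted p = 0.067) and by -0.014 after centring. Of 76 mitochondrial ribosomal protein genes, which build the separate ribosome inside mitochondria, 34 were higher and 1 lower at 24 h, with a median difference of 0.18. Over all genes 20.3% were higher and 3.66% lower, with a median of 0.090. After centring 2 of the 76 were higher and 7 lower, and after quantile normalization again 6 higher and 4 lower. Mrpl2 was higher by 0.44 ± 0.071 (adjusted p = 2.5e-05) and Mrps34 by 0.37 ± 0.068 (adjusted p = 0.00014), and both also passed after centring at 0.25 and 0.19. Mrpl11 was higher by 0.34 ± 0.071 (adjusted p = 0.00053) and differed by 0.16 after centring (adjusted p = 0.094).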

How the data were processed

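Total RNA from the lungs of 60 mice was hybridised, 1 mouse per array, by the authors to Affymetrix mouse arrays after oligo-dT labelling. The deposited log2 values were made by the authors with Robust Multi-Array Analysis (version not given in the sources used here), so they carry no counts and the precision rests on 5 arrays per group. The deposited table held 45101 probe sets, 64 of them controls. Of the rest, 34945 had 1 gene symbol, 932 several and 9160 none. For each of 18193 genes the brightest of these sets on average was kept. limma 3.58.1 in R 4.3.3 fitted a mean per group over all arrays (residual degrees of freedom: 48). P-values were adjusted by Benjamini-Hochberg across the 18193 genes and called below 0.05. Replicates were separate mice, so p-values measure the spread between mice. Alternatives were averaging all probe sets of each gene, a filter (5 or more arrays at a log2 of 6 or more), renewed quantile normalization, median-centred arrays, trend and robust moderation, each time fitted alone, a replicate block, the methods' test (Welch's analysis of variance with Benjamini-Hochberg adjustment, then Tukey's comparison) and leaving out each mouse. Covariates for the Actb 3′ minus 5′ difference and the array interquartile range, all probe sets of the members, and the F test without the 24 h sham group were chosen after seeing the data. The fit was tested on data made with known differences.

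Members, gene lists and tests were chosen with earlier results of these data known. Genes named were, at each time and in each sham group against the others, the 4 higher and 4 lower members with the largest difference among those that passed, the 5 with the smallest p in the sham F test, a fixed set with the paralogs and their parents, and 3 of each pathway list. Rps24, Rps3a1, Rpl10a, Rpl35, Rps25, Rpl37a and Tsc1 were named after their values were seen. Promoter windows are from RefSeq (GRCm38.p6).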

Additional observations from a re-analysis of the deposited data

Results flagged for a closer look

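One mouse stood far from the other 4 of its group in 7 of the 132 groups examined, where chance gives about 1 in 20. These covered the members that passed between exposed and sham mice or in the sham F test, and the mean of all members. Other named members, Rpl3l among them, were not examined in this way. For Rpl22l1, array 5 was high in the exposed 24 h group (12.03, next 11.68) and array 5 in the exposed 168 h group (12.03, next 11.76). For Rps2, array 4 was low in the exposed 0 h group (13.09, next 13.23) and high in the exposed 96 h group (13.35, next 13.27). Rpl14 was low on exposed 6 h array 1 (6.38, next 6.79), Rps27l on exposed 168 h array 3 (11.40, next 11.53), and Rpsa was high on exposed 24 h array 2 (13.30, next 13.19).

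The exposure effect differed between 168 and 24 h in limma for 5 members. The effect at 168 h minus that at 24 h was 0.50 for Rpl27a (adjusted p = 0.022), 0.62 for Rpl37 (0.040), -0.18 for Rpl37a (0.046), -0.34 for Rps6 (0.048) and -0.22 for Rpsa (0.029).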

How the results depend on the processing

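Of the counts of members, 133 stayed within 1.5 times the main count under the alternatives other than leaving out a mouse and 47 did not. Median-centred arrays moved the most: 20 members at 24 h, 15 at 48 h and 0 at 168 h in exposed against sham mice, 1, 27 and 1 for the sham groups of 6, 24 and 48 h, 0 for exposed 6 h, and 22, 1 and 0 in the F tests of sham groups, of effects and of exposed groups. Under it the 24 h difference turned to -0.054 for Rps2 and -0.032 for Rps3. After centring, 16.3%, 8.82% and 2.45% of all genes passed at 24, 48 and 168 h in exposed against sham mice. For the sham groups of 6, 24 and 48 h the shares were 8.11%, 28.2% and 3.90%, and for exposed 6 h 5.25%. Averaging all probe sets of each gene gave 0 at 168 h, 1 for exposed 0 h and 0 for exposed 6 h. The filter on low values, which kept 11899 genes and 46 members, gave 2 at 48 h, 7 for sham 24 h, 1 each for sham 96 h and exposed 96 h, and 11, 3 and 2 in the F tests. Quantile normalization again gave 2 for sham 0 h, 1 for sham 6 h, and 1 and 0 in the F tests of effects and of exposed groups. Trend and robust moderation gave 1 for exposed 96 h, and 1 and 2 in those F tests. Each time fitted alone gave 2 members for 24 h and 0 for both 48 and 168 h. The methods' test gave 1 for 6 h, 2 for 24 h, 0 for 48 h, 1 for 96 h and 0 for 168 h. Chosen after seeing the data, the Actb covariate gave 2 at 48 h, 0 at 168 h and 0 in the exposed F test, and the interquartile range covariate 1 at 6 h, 2 at 24 h, 0 at 48 and 168 h, 0 for sham 24 h, 0 in the sham F test and 3 in the exposed F test. The cause of these moves was not tested.

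Leaving out 1 mouse gave 2 to 6 members at 24 h (2 without sham array 3 or exposed array 2), 0 to 3 at 48 h and 0 to 1 at 168 h. Over the same fits 3099 to 4786 of all genes passed at 24 h, 1485 to 3021 at 48 h and 100 to 665 at 168 h. For the sham groups it gave 0 to 1 for 0 h, 2 to 8 for 24 h, 0 to 2 for 48 h (2 without sham 48 h array 4) and 0 to 1 at 96 h (1 without sham 0 h array 1), and for exposed 6 h 0 to 1. The counts of 0 at 0, 6 and 96 h in exposed against sham mice stayed 0. Replicate numbers did not pair the mice: deviations of same-numbered arrays correlated between -0.51 and 0.47, with 7 of 30 pairs over 0.1, and 4 of 30 exposed arrays were closest to their own number. The replicate block gave 1 in the F test of effects and 0 in that of exposed groups, and moved no other count of members by over 1.5 times. Signal and the 5 arrays per group limit the dim members: the median residual SD was 0.163 for the 15 with a mean under 12 and 0.058 for the other 34.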
